A study of Mus musculus with 12 samples.

Results

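393P is a mouse lung cancer cell line from a lung adenocarcinoma of a genetically engineered mouse, and the labels call it epithelial and non-metastatic. The cells described here are 393P cells with a GFP vector, the negative control of a study of the transcription factor Zeb1 and its acetylation. All 12208 genes of the count table were described in these cells, with no contrast to another line. They were ranked by mean CPM, the count of a gene per 1000000 counts of its library. The vector libraries are 3 of the 12 in the series, and the other 9 come from 393P lines with wild-type Zeb1 or with Zeb1 forms labelled deficient and mimetic. All lines were kept in RPMI medium with 10% fetal bovine serum and no treatment was given. The vector cells are a single line, and what else the vector carries is not given in the labels used here. The labels name the 3 libraries as biological replicates, whereas the series design text speaks of 2 replicates, and no source used here settles this. Nothing says that they came from separate cultures, so the spread between them may be technical.

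Epithelial cells are held together by E-cadherin junctions, sealed by claudins and braced by paired keratin filaments, while mesenchymal cells use vimentin filaments and leave these contacts. Lung epithelium is made from foregut endoderm, where Nkx2-1 sets lung identity and Hnf4a and Cdx2 belong to the gut and liver programmes. Fast-dividing carcinoma cells spend much of their RNA on ribosomes, glycolysis and the building of lipids, nucleotides and amino acids.

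The 3 vector libraries held 33.6, 33.3 and 39.03 M counts, within a range of 24.4 to 39.03 M over the series. The lowest count of any listed gene in any of the 12 libraries is 1, so the table holds only genes seen in every library, and a gene that it does not list is not analysed here. Zeb1 stood at 28.4 to 33.6 CPM in the vector libraries and at 220.5 to 498.6 CPM in the 9 Zeb1 libraries, the order that the labels state. Of the 12208 gene IDs, 12195 are in GENCODE M21 (GRCm38), from which all gene coordinates are taken, and 12121 are protein coding. Errors below are SD over the 3 vector libraries, n = 3.

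The labels name a 3′ tag kit (QuantSeq 3′ mRNA-Seq FWD), with which a count should not depend on transcript length. Across genes, however, these counts rose with annotated transcript length. Whether this comes from the counting or from the levels of the genes themselves was not tested. The median level was 16.9 CPM in the tenth of genes with the shortest longest transcript (up to 1.394 kb) and rose over the length classes to 60.7 CPM in the tenth with the longest (from 6.773 kb). After division by that length and rescaling of each library to a sum of 1000000, here termed the length-scaled level, the median fell from 41.1 to 17.8. Across 12195 genes, which are not independent, Spearman's rho of CPM with length was 0.186. Which scale is nearer to molecules was not settled, so levels are given in CPM per library, and genes are compared with each other on the length-scaled level. The longest annotated transcript need not be the one these cells use.

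**Figure D1:**
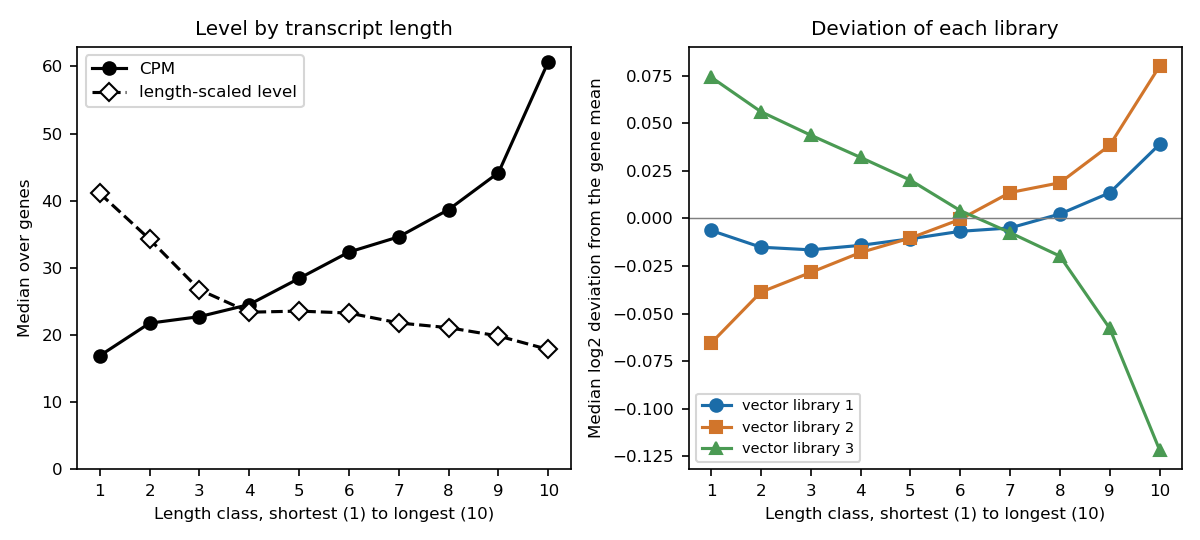
Left, median CPM (filled circles) and median length-scaled level (open diamonds) of genes in 10 classes of transcript length, from shortest to longest. Right, median log2 deviation of each vector library from the gene mean in the same classes, for genes of at least 10 CPM. CPM rises from 16.9 to 60.7 and the length-scaled level falls from 41.1 to 17.8, while library 3 goes from 0.07 to -0.12 and library 2 from -0.07 to 0.08.

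The RNA of the vector cells was spread over many genes. The 10 genes with the highest CPM took 6.32% ± 0.100 of all counts, the top 100 took 19.5% ± 0.35 and the top 1000 took 52.1% ± 0.296. In libraries 1, 2 and 3, 901, 909 and 880 genes made up 50% of the counts. Of all genes, 8785 (72.0%) had a mean of at least 10 CPM, 2438 (19.97%) at least 100 and 78 at least 1000, and the median gene stood at 31.4 CPM. On the length-scaled level the RNA was more concentrated, with 10.1% ± 0.251 in the top 10 and 30.1% ± 0.664 in the top 100. The top 100 lists of the 2 scales shared 65 genes. The median longest transcript was 2.43 kb in the top 100 by CPM, 1.35 kb in the top 100 by length-scaled level and 3.39 kb over all genes.

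Protein synthesis, actin, chaperones and intermediate filaments led the ranking. The most abundant transcript was Eef1a1, which brings aminoacyl-tRNA to the ribosome (chromosome 9, 78478449 to 78489151), at 11214, 11405 and 12135 CPM in libraries 1 to 3. It was in first place on both scales, with a length-scaled level of 16849 ± 482. Beta-actin, Actb (chromosome 5, 142903115 to 142906754), followed at 6910, 6838 and 7436 CPM, highest in library 3. The mitochondrial cytochrome oxidase gene mt-Co1 came next at 7168, 7111 and 6060 CPM and was lowest in library 3. Ahnak, a very large membrane scaffold protein, reached 6997, 7500 and 5654 CPM. It ranked in place 4 by CPM and in place 130 by length-scaled level, since its longest transcript measures 18.1 kb. The chaperone Hsp90ab1 (6390 ± 198 CPM), the elongation factor Eef2 (5538 ± 322), vimentin (Vim, 5230 ± 340), the ribosomal protein Rpsa (5101 ± 274) and the glycolytic enzyme Pkm (4507 ± 264) filled the next places.

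The rest of the top 30 had the same make-up. Next came Gm10800 at 5092, 3474 and 4176 CPM, a gene model that holds a satellite repeat, so its counts may come from repeats elsewhere. Then came the keratins Krt8 and Krt18 and the small secreted or calcium-binding proteins Lgals1 (3116 ± 223 CPM) and S100a6 (3053 ± 160). The short transcripts of the last 2 raised them to places 5 and 4 by length-scaled level. The lipid desaturase Scd2, the nucleolar chaperone Npm1 (2744 ± 34.2 CPM), filamin A (Flna, 2484 ± 64.9) and the myosin Myh9 (2299 ± 140) were also among them. Of these 30 genes, 28 were in the top 30 of each library, and 86 of the top 100 genes were in that of each library. Exons of Krt8, Anxa2 and Ddb1 overlap those of a gene on the opposite strand, and the counting strand is not stated, so these 3 levels may include reads of the partner.

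**Figure D2:**
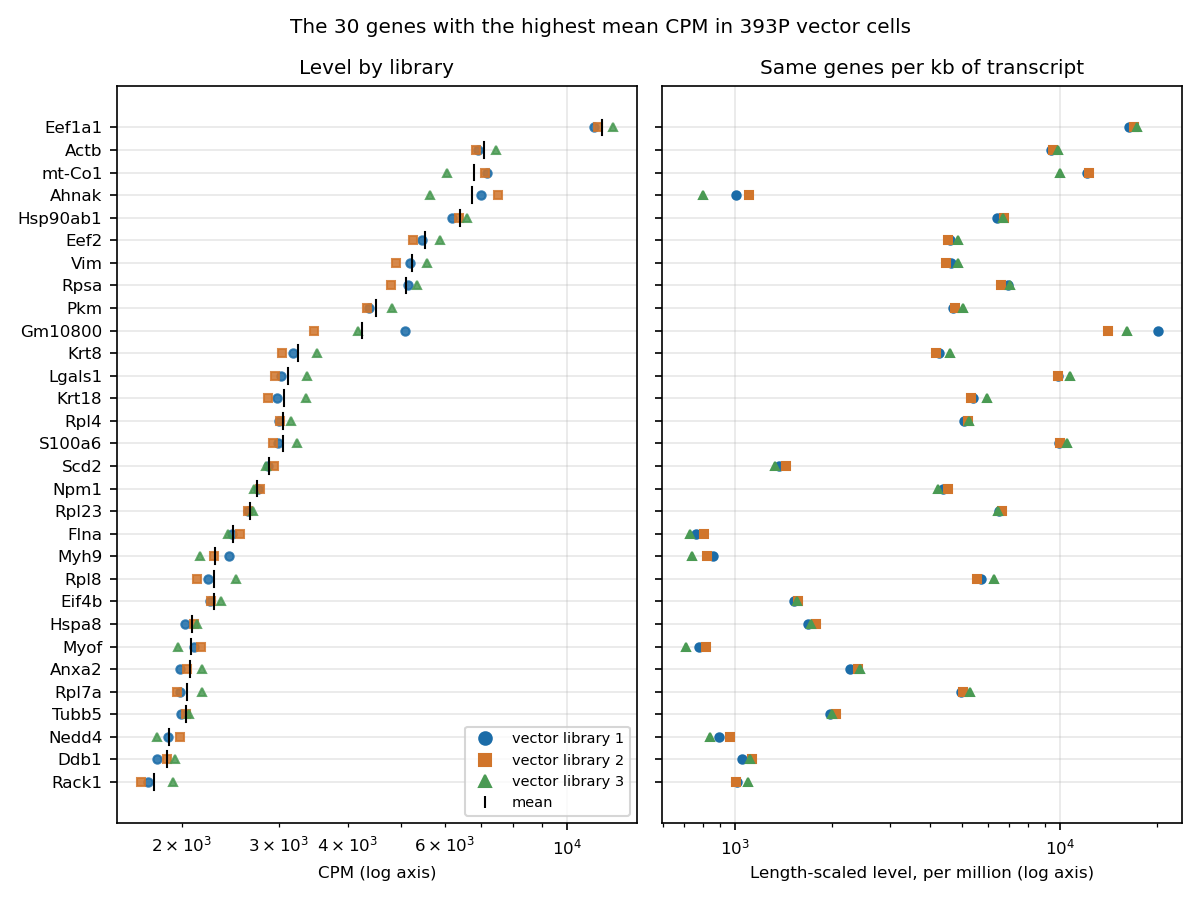
CPM (left) and length-scaled level (right), both on log axes, of the 30 genes with the highest mean CPM, with a symbol for each vector library and a bar for the mean CPM. Eef1a1 leads with 11214 to 12135 CPM, and long-transcript genes such as Ahnak and Flna drop back on the right.

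By group, the 80 cytosolic ribosomal protein genes took 5.78, 5.49 and 6.10% of the counts in libraries 1, 2 and 3, lowest in library 2 and highest in library 3. Their median was 484 CPM against 31.4 over all genes, and they held 23 of the top 100 places by CPM and 37 by length-scaled level. Their share of the length-scaled total was 13%. Rpl4 stood at 3061 ± 89.4 CPM, Rpl23 at 2658 ± 30.4 and Rpl8 at 2290 ± 195. Rpl24 was listed with 14, 18 and 24 counts only, and many of these genes have near-identical pseudogene copies between which reads can be split, so single levels are uncertain. The 28 translation factors took 3.61% ± 0.0945 of the counts, among them Eif4b (2289 ± 59.1 CPM), a helper of the helicase that opens mRNA leaders, and Rack1 (1782 ± 128 CPM), a scaffold on the small ribosomal subunit. The 30 chaperone genes took 2.53% ± 0.0552, with Hspa8 at 2089 ± 53.4 CPM, the mitochondrial chaperonin Hspd1 at 1321 CPM and the heat-induced Hspa1b at 1.67 CPM.

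The 47 actin cytoskeleton genes took 3.75% ± 0.0485 of the counts, and 38 of them had at least 100 CPM. Actb exceeded the other cytoplasmic actin, Actg1 (672 ± 28.0 CPM), by 10.7 ± 0.323 times on the length-scaled level, although near-identical actin copies limit this ratio. The actin monomer binder Pfn1 stood at 1602 ± 62.4 CPM and ezrin (Ezr), which ties actin to the apical membrane, at 1593, 1476 and 1615 CPM. Muscle actin Acta1 was listed at 0.210 CPM. In the S100 and annexin group, 13 of 18 genes had at least 100 CPM, led by S100a6 and Anxa2 (2071 ± 100.02 CPM), whose protein works as a membrane complex with S100a10 (862 ± 36.7 CPM). Tubb5 led the 12 tubulin genes with 2033 ± 33.8 CPM.

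Simple-epithelial keratins and vimentin were both among the 13 most abundant transcripts. Keratin 8 (Krt8, chromosome 15, 101996698 to 102004482, minus strand) and its filament partner keratin 18 (Krt18, chromosome 15, 102028180 to 102032027) lie near each other, on opposite strands. Their promoters are shown with that of vimentin, and these 3 genes led the intermediate filament list by CPM. Each window runs from 250 bases before to 50 bases after a RefSeq transcript start (RefSeq, GRCm38.p6), 5′ to 3′ on the gene's strand: chr15:102004293-102004592 (minus) for Krt8, chr15:102027966-102028265 (plus) for Krt18 and chr2:13574061-13574360 (plus) for Vim. Capitals mark TATAAA or CAGGTG, the E-box that Zeb1 and Snail proteins can bind, or GGGCGG, on either strand.
Krt8: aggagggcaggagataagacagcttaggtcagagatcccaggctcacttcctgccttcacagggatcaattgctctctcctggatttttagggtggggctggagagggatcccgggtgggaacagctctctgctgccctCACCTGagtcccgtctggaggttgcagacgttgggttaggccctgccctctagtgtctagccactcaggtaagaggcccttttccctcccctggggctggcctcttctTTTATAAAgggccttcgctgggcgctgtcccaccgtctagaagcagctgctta
Krt18: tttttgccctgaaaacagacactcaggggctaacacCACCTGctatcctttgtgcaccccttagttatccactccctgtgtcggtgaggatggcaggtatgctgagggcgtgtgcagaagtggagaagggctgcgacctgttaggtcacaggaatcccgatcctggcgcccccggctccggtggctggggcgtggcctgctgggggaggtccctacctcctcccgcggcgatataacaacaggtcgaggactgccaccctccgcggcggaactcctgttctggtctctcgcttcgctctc
Vim: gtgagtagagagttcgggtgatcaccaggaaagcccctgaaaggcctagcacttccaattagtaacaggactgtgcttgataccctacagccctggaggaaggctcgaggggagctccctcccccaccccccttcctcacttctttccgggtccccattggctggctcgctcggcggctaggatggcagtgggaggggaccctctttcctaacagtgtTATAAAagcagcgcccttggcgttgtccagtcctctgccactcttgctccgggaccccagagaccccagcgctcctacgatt
A CAGGTG match on either strand lies at -111 in the Krt8 window and at -214 in that of Krt18, counted from the start, and the Vim window holds none but has TATAAA at -32. The overlapping TATAAA matches of Krt8 lie at -3 and -1, right at this RefSeq start. Of the 9363 count-table genes with a window, 17.4% hold CAGGTG, 6.75% TATAAA and 65.1% GGGCGG. The match is a description of the letters, and binding was not measured.

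Krt8 was measured at 3186, 3043 and 3521 CPM and Krt18 at 2980, 2870 and 3369 CPM in libraries 1 to 3. Both were lowest in library 2 and highest in library 3, so their ratio stayed at 1.06 ± 0.0123 in CPM. Vim (chromosome 2, 13573927 to 13582826) was measured at 5201, 4906 and 5584 CPM, in the same order of libraries. On the length-scaled level Krt18 came to 5576 ± 351, Vim to 4662 ± 194 and Krt8 to 4328 ± 227, so that Vim was 1.08 ± 0.0155 times Krt8 and 0.837 ± 0.0217 times Krt18, against 1.61 ± 0.0232 and 1.70 ± 0.0443 times in CPM. Vim was thus above Krt8 on both scales in every library, and only its order against Krt18 turned with the scale. The longest Vim transcript, 2.926 kb, is annotated with 1 exon, whereas those of Krt8 and Krt18 have 9 and 7. That turn therefore rests on the length taken for Vim, and a shorter one would raise its length-scaled level. The other keratins of simple and ductal epithelium were Krt19 at 1548, 1455 and 1734 CPM and Krt7 at 848, 797 and 893 CPM, and both again were lowest in library 2 and highest in library 3. Genes of 1.395 to 1.968 kb, the length class of Krt8, Krt18 and Krt19, had median log2 deviations of the same signs, -0.04 and 0.06. In the class of Krt7, 3.897 to 4.465 kb, these were 0.01 and -0.007. Krt14, a keratin of stratified epithelium, had 4, 6 and 5 counts, and Krt5, Krt6a and Krt17 were not analysed here. Nuclear lamin A (Lmna) stood at 1316 ± 118 CPM. Of the 22 filament genes fixed, 14 are in the table and 7 had at least 100 CPM.

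**Figure D3:**
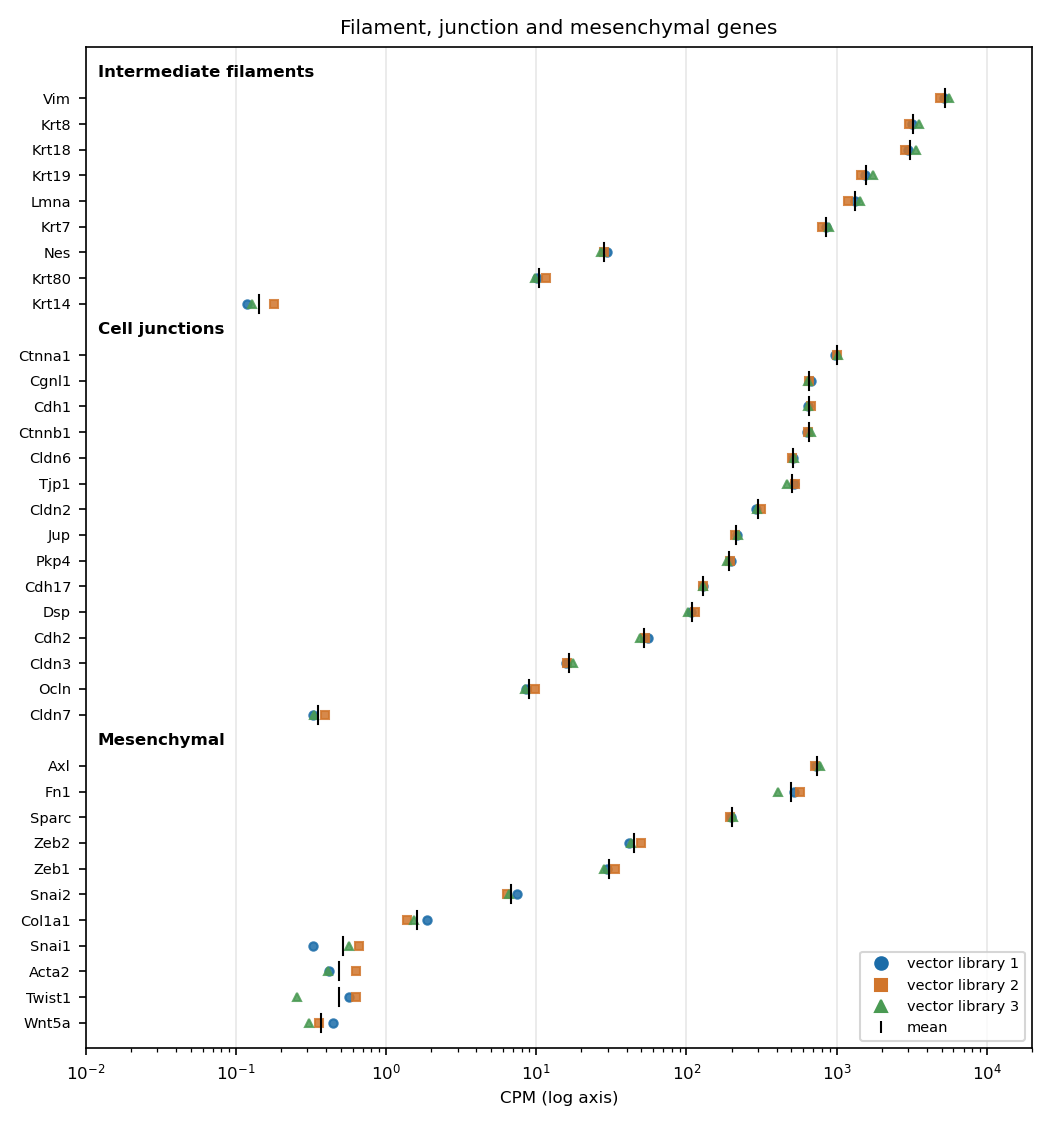
CPM on a log axis of intermediate filament, cell junction and mesenchymal genes, with a symbol for each vector library and a bar for the mean. Vim, Krt8 and Krt18 lie between 2870 and 5584 CPM, Cdh1 lies between 644 and 674, and Snai1, Twist1 and Acta2 lie under 1 CPM in every library.

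E-cadherin, alpha-catenin and beta-catenin led the adherens junction genes. E-cadherin (Cdh1, chromosome 8, 106603351 to 106670246) was measured at 646, 674 and 644 CPM, with a length-scaled level of 386 ± 18.5. N-cadherin (Cdh2), the mesenchymal counterpart, stood at 55.3, 53.03 and 49.1 CPM, below every Cdh1 value, and Cdh1 was 13.7 ± 0.808 times higher on the length-scaled level. Its cytoplasmic partners alpha-catenin (Ctnna1, 1004 ± 21 CPM) and beta-catenin (Ctnnb1, 652 ± 18.3) had length-scaled levels of 702 ± 18.4 and 470 ± 9.85. Gamma-catenin (Jup), shared with desmosomes, had 215 ± 4.46 CPM. The next members were Afdn (372 ± 30.8 CPM) and Vcl (264 ± 7.67), linkers to actin, and the adhesion molecule Nectin1 was lowest at 0.0584 CPM. Of 24 adherens genes fixed, 17 are in the table, 9 of them with at least 100 CPM, and the median CV over libraries was 4.36%.

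Tight junction genes included claudins of very unequal level. Cldn6, a claudin of embryonic epithelia, stood at 515, 502 and 517 CPM and had the highest length-scaled level of the described claudins, 823 ± 8.51. Cldn2, which forms a cation pore in leaky epithelia, was measured at 292, 313 and 294 CPM. Other claudins were lower, with Cldn12 at 40.5 ± 1.29 CPM, Cldn3 at 16.4 ± 1.00 and Cldn7 at 11, 13 and 13 counts, while Cldn1 and Cldn4 were not analysed here. Occludin (Ocln), another strand protein, was low at 8.59, 9.82 and 8.38 CPM. The scaffolds below the strands were higher, with Tjp1 (ZO-1) at 504 ± 32.2 CPM, the cingulin-like Cgnl1 at 656 ± 15.2 and Ybx3, which binds ZO-1, at 634 ± 33.5. Their length-scaled levels were 187 ± 15.9, 253 ± 9.30 and 892 ± 29.6. Of 29 tight junction genes fixed, 20 are in the table and 8 had at least 100 CPM. Of the 15 with a promoter window, 8 hold CAGGTG (53.3%, against 17.4% of the count-table genes).

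Desmosome genes ranged from moderate to low level. The plakophilin relative Pkp4 stood at 193 ± 4.92 CPM, periplakin (Ppl) at 180 ± 7.75, the junction protein Perp at 123 ± 5.13 and desmoplakin (Dsp), the keratin anchor, at 108, 114 and 102 CPM. Dsp came to 29.5 ± 2.31 on the length-scaled level because its transcript is 9.592 kb long. Evpl and Pkp3 stood at 8.93 ± 0.815 and 3.57 ± 0.520 CPM, and Pkp1, of stratified epithelium, at 1.78 ± 0.380 CPM. Of 14 genes fixed, 8 are in the table, 5 of them with at least 10 CPM and 4 with at least 100. The desmosomal cadherins Dsg2 and Dsc2 were not analysed here.

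Other epithelial genes were present in part. The tetraspanin Tspan8 (611, 642 and 632 CPM), the polarity kinase Prkci (334 ± 15.3), the surface glycoprotein Cd24a (227 ± 1.15) and the polarity scaffolds Scrib (200.3 ± 8.09) and Dlg1 were highest by CPM. The protease inhibitor Spint2 had 140, 133 and 149 CPM, whereas its relative Spint1 had 8, 7 and 11 counts. The epithelial splicing factor Esrp2 stood at 48.3 ± 1.5 CPM, and the epithelial transcription factors Klf5 and Grhl2 stood at 114 ± 0.793 and 1.90 ± 0.267 CPM. The polarity gene Crb3, a known Zeb1 target, had 2.70 ± 0.600 CPM. Of 38 genes fixed, 26 are in the table and 8 had at least 100 CPM. The rest, among them Epcam, Esrp1, Rab25 and St14, was not analysed here, so the epithelial label was checked only on the listed part of its markers. Of the 17 with a promoter window, 10 hold CAGGTG (58.8%, against 17.4% of the count-table genes). Of the other lists searched, 3 of 10 filament genes, 6 of 60 ribosomal protein genes, 0 of 2 histone genes 8 of 71 genes among the top 100 by CPM and 9 of 62 among the top 100 by length-scaled level hold it. These shares are descriptions, with no test.

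Integrin RNA was led by chains of laminin receptors. The laminin receptor chain Itga6 was measured at 1040, 1060 and 1023 CPM, Itgb1, the common beta chain, at 763, 822 and 774 CPM, and Itga3, another laminin receptor chain, at 532, 543 and 538 CPM. Their length-scaled levels were 631 ± 25.9, 538 ± 32.5 and 289 ± 8.73. Itgb4, the hemidesmosome partner of Itga6, was lower at 187 ± 2.75 CPM and 78.6 ± 2.74 on the length-scaled level. The keratin linkers plectin (Plec, 1632 ± 116 CPM) and dystonin (Dst, 916, 922 and 663 CPM) have transcripts of 15.455 and 23.279 kb, and both were lowest in library 3. Itga11, a collagen receptor of fibroblasts, had 9, 12 and 9 counts. Of 28 genes fixed, 25 are in the table and 14 had at least 100 CPM. In the basement membrane, Lama5 (1013 ± 70.8 CPM), Lamb1 (524 ± 4.14) and Lamc1 (534 ± 35.2) encode the 3 chains of a laminin of mature epithelial basement membranes. Lamb3, a chain of the laminin of hemidesmosomes, stood at 149 ± 6.53 CPM, while Lama3 was not analysed here. The collagen chains Col4a1 (689 ± 36.6 CPM) and Col18a1 (697 ± 40.8) were likewise among the leading members.

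Mesenchymal genes other than Vim were of very unequal level. The receptor kinase Axl was measured at 726, 715 and 772 CPM, the matrix protein fibronectin (Fn1) at 519, 568 and 406 CPM, the metalloproteinase inhibitor Timp2 at 306 ± 10.5 CPM and Sparc at 200.02 ± 3.91 CPM. Fn1 was lowest in library 3, and its transcript is 8.315 kb long. Mmp14 (65.6 ± 2.44 CPM), Timp1 (57.7 ± 4.17) and Thbs1 (54.2 ± 3.66) were lower by CPM. On the length-scaled level Timp1 came to 170 ± 8.71 and Fn1 to 157 ± 29.6. Among the transcription factors that drive the transition, the Zeb genes lay nearest the median gene, at 31.4 CPM. On the length-scaled level Zeb1 (13.8 ± 1.56) and Zeb2 (12.8 ± 1.51) were both below the median of 23.6. Zeb2 stood at 41.5, 49.6 and 42.9 CPM and Zeb1 (chromosome 18, 5591860 to 5775467) at 29.6, 33.6 and 28.4. Zeb1 was 0.684 ± 0.0257 times Zeb2 in CPM and 1.08 ± 0.0404 times on the length-scaled level, with each ratio on the same side of 1 in all 3 libraries, so their order turned with the scale. The others were lower. Snai2 had 6.81 ± 0.556 CPM, Snai1 11, 22 and 22 counts and Twist1 19, 21 and 10 counts. The contractile genes Acta2 and Cnn1 were under 1 CPM in every library, at 14, 21 and 16 counts and at 8, 3 and 3. The fibrillar collagens were unequal, with Col1a1 at 63, 46 and 60 counts and Col5a1 at 48.9, 44.2 and 49.2 CPM. Col5a1 was above the median gene by CPM only, as its length-scaled level was 14.7 ± 0.598 against a median of 23.6. Of 44 genes fixed, 31 are in the table and 5 had at least 100 CPM, a level that 19.97% of all genes reached. The median of the list was 7.82 CPM, below the 31.4 of all genes.

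By CPM, several transcription factors of gut and liver endoderm were above the median gene. On the length-scaled level, with a median of 23.6, Hnf4a, Foxa2 and Cdx2 remained above it, while Onecut2, at 13.8 ± 4.35, was below. The nuclear receptor Hnf4a (chromosome 2, 163506808 to 163572910), a regulator of liver and gut epithelium, was measured at 168, 177 and 167 CPM with a length-scaled level of 102 ± 5.57. The pioneer factor Foxa2 stood at 81.5, 69.8 and 72.7 CPM and its relative Foxa1 at 21.7, 24.4 and 18.0, a ratio of 5.33 ± 0.925 on the length-scaled level. Cdx2, the intestinal homeobox factor, stood at 57.3, 51.5 and 60.4 CPM, and Onecut2, a liver and foregut factor, at 96.7, 103 and 56.2 CPM, lowest in library 3, with a transcript of 16.234 kb. Sox9 (30.1 ± 7.09 CPM) and Gata6 (18.1 ± 1.35) were lower, and Sox2 had 2.54 ± 0.0622 CPM. The fetal chromatin proteins Hmga1 and Hmga2 had 230 ± 18.4 and 152 ± 22.2 CPM. The lung factor Nkx2-1 was not analysed here, and neither were Cdx1 or Gata4. Of 45 genes fixed, 29 are in the table and 8 had at least 100 CPM.

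Gut and liver genes ranged from over 100 CPM to a few counts. Galectin-4 (Lgals4) of the intestinal epithelium was measured at 126, 132 and 138 CPM, liver-intestine cadherin (Cdh17) at 128, 129 and 128 CPM, the selenium carrier Selenop at 165, 171 and 177 CPM and the kinase Epha2 at 392 ± 19.8 CPM. On the length-scaled level Lgals4 came to 248 ± 9.62, Selenop to 214 ± 6.98 and Cdh17 to 96.9 ± 2.33. Villin (Vil1), of the brush border, was lower at 32.0 ± 1.95 CPM. Mttp, which loads lipid onto lipoproteins in liver and gut, stood at 11.2, 11.4 and 10.6 CPM. The lipoprotein gene Apoa1 had 7, 19 and 15 counts and the fetal liver product Afp 2, 3 and 14, and Alb, Ttr, Fabp1 and the trefoil factors were not analysed here. Of 42 genes fixed, 15 are in the table and 6 had at least 100 CPM, a level that 19.97% of all genes reached. These 6 were Ezr, Epha2, Lgals3 (315 ± 20.8 CPM), Selenop, Lgals4 and Cdh17. Ezr is also on the actin list, Epha2 on the receptor kinase list and Selenop on that of metal handling. The count is thus no measure of gut or liver identity.

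**Figure D4:**
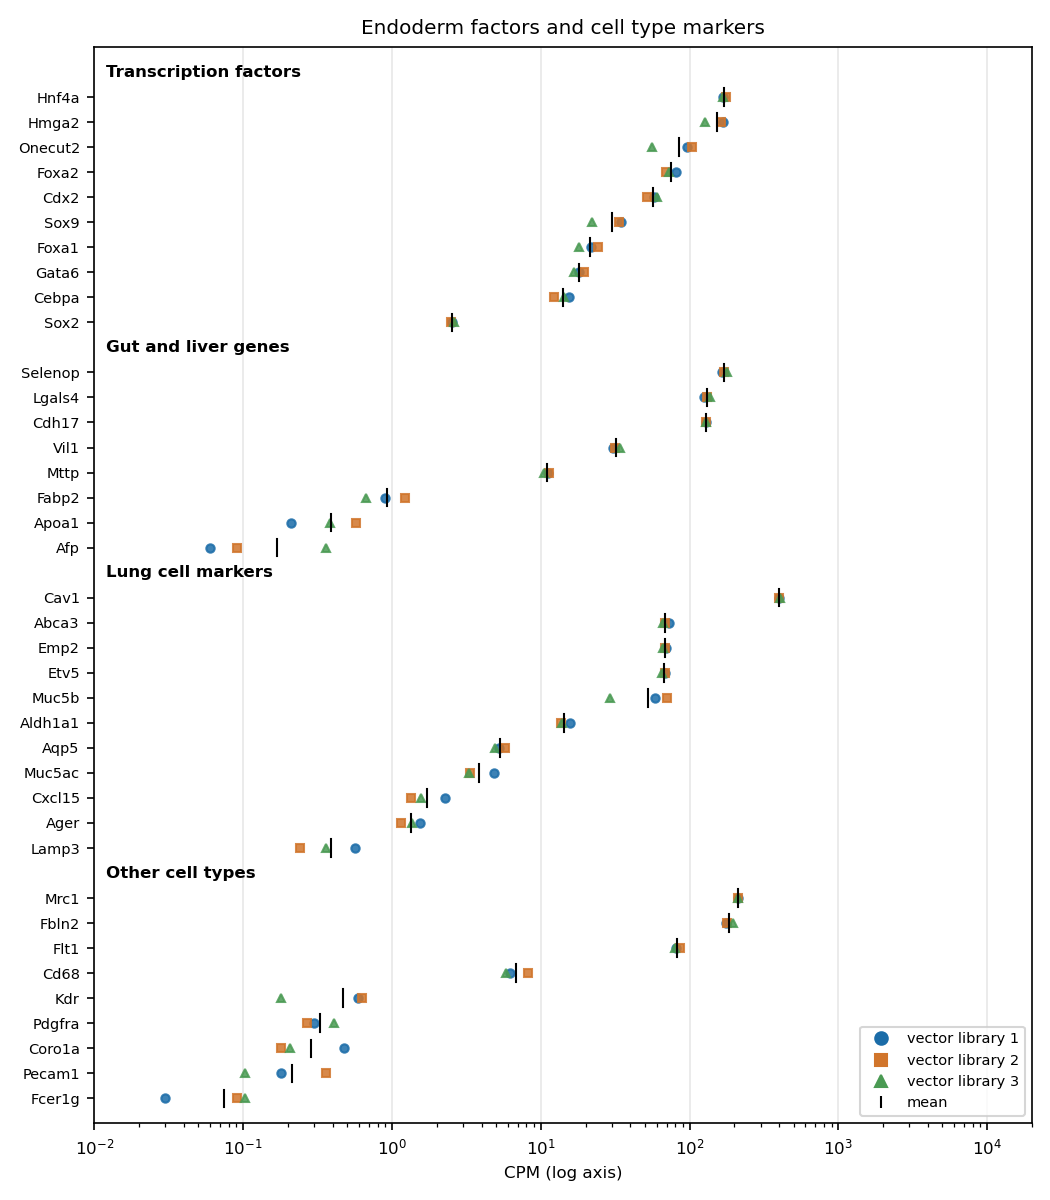
CPM on a log axis of endoderm transcription factors, gut and liver genes, markers of lung cells and markers of other cell types, with a symbol for each vector library and a bar for the mean. Hnf4a, Selenop, Lgals4 and Cdh17 lie between 126 and 177 CPM in every library, while Lamp3, Pecam1 and Fcer1g lie under 1 CPM.

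Markers of differentiated lung cells were present in part. Of 19 alveolar type 2 markers, 7 are in the table and none (0) had at least 100 CPM. The lipid transporter Abca3 stood at 68.8 ± 3.36 CPM and the factor Etv5 at 67.4 ± 2.18, while Lamp3 had 19, 8 and 14 counts, and the surfactant genes Sftpa1, Sftpb, Sftpc and Sftpd were not analysed here. Of 20 type 1 markers, 12 are in the table and 5 had at least 100 CPM. Their median was 42.4 CPM against the 31.4 of all genes, and 25.1 against 23.6 on the length-scaled level. They were led by Krt7, Cav1 (401 ± 6.15 CPM) and Cav2 (327 ± 12), which are not limited to that cell. The semaphorin Sema3e (153 ± 9.28 CPM), the orphan receptor Gprc5a (148 ± 8.56) and the membrane protein Emp2 (68.1 ± 1.51) followed, whereas Aqp5 and Ager had 5.31 ± 0.398 and 1.35 ± 0.203 CPM. Of 20 club and goblet markers 5 are in the table, with Muc5b, a gel-forming mucin, at 58.1, 70.1 and 29.4 CPM, and Scgb1a1 was not analysed here. Basal markers were led by Icam1 at 31.4 ± 2.56 CPM, and Trp63 and Krt5 were not analysed here. Of 14 ciliated markers 3 are in the table, and only Tubb4b, a tubulin of most dividing cells too, had a mean over 1 CPM, while Tppp3 had 22, 41 and 42 counts. The neuroendocrine list had Ncam1 at 57.6 ± 2.05 CPM and Syp at 10, 3 and 3 counts.

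Markers of stroma and blood were low with 3 exceptions. In bulk RNA, few cells of a type and little RNA per cell cannot be told apart. The fibroblast list summed to 182, 185 and 201 CPM, nearly all from the matrix protein Fbln2 (175, 179 and 194 CPM), while Pdgfra had 10, 9 and 16 counts and 11 of 16 markers were not analysed here. The endothelial list summed to 86.0, 91.7 and 84.3 CPM, nearly all from the receptor Flt1 (82.4 ± 3.66 CPM), while Pecam1 had 6, 12 and 4 counts and Kdr 20, 21 and 7. The leukocyte list summed to 218, 219 and 217 CPM, of which the mannose receptor Mrc1 gave 210.8, 210.7 and 210.5 CPM. Cd68 had 6.76 ± 1.28 CPM, Coro1a 16, 6 and 8 counts and Fcer1g 1, 3 and 4 counts, and Ptprc and the other 15 of 20 were not analysed here. Mrc1 had the smallest CV of the 4670 genes with at least 50 CPM, 0.0833%.

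Glycolytic genes took 1.17% ± 0.0660 of the counts, and 15 of the 26 listed had at least 100 CPM. Pyruvate kinase (Pkm, chromosome 9, 59656368 to 59679375) was measured at 4380, 4330 and 4811 CPM, with a length-scaled level of 4834 ± 184. It was followed on that level by aldolase (Aldoa) at 1947 ± 91.6, triose phosphate isomerase (Tpi1) at 1506 ± 79.0 and lactate dehydrogenase A (Ldha) at 1392 ± 74.7. In CPM these 3 stood at 1156 ± 79.2, 928 ± 66.9 and 968 ± 67.1, each highest in library 3. The neuronal enolase Eno2 had 11, 12 and 24 counts, while Eno1 had 719 ± 59.5 CPM. Gapdh was measured at 554, 543 and 585 CPM, well below Pkm, but it has many pseudogene copies that can split its reads. Of the lactate carriers, Slc16a1 stood at 394, 389 and 410 CPM and Slc16a3 at 90, 102 and 92 counts, a ratio of 146 ± 22.95 on the length-scaled level. The glucose transporter Slc2a1 had 64.3 ± 2.37 CPM.

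Mitochondrial genes were of 2 kinds. The 71 nuclear genes of the respiratory chain took 1.01% ± 0.0446 of the counts, led by the ATP synthase subunits Atp5b (1387 ± 64.4 CPM) and Atp5a1 (1172 ± 47.9). The 12 mitochondrially encoded genes took 0.998, 0.986 and 0.814% in libraries 1, 2 and 3, lowest in library 3. Their medians of the log2 deviation from the gene mean were 0.14, 0.08 and -0.24. These genes were very uneven. On the length-scaled level mt-Co1 came to 11469 ± 1275, mt-Cytb to 2452 ± 405 and mt-Nd1 to 2335 ± 322, while mt-Co3 and mt-Co2, subunits of the same enzyme as mt-Co1, came to 41.4 ± 4.18 and 29.2 ± 3.51. The ratios of mt-Co1 to them were 277 ± 15.0 and 393 ± 32.6. Parts of the mitochondrial genome have near-identical nuclear copies, so reads can be lost or shared, and the part of this in the unequal levels was not tested. All 27 listed genes of the tricarboxylic acid cycle had at least 10 CPM and 23 had at least 100. Isocitrate dehydrogenase Idh2 stood at 334 ± 19.5 CPM, and pyruvate carboxylase (Pcx) was the lowest at 11.7 ± 0.651 CPM.

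Amino acid synthesis genes were led by asparagine synthetase. Asns (chromosome 6, 7675169 to 7693254) was measured at 1241, 1268 and 1319 CPM, with a length-scaled level of 1652 ± 39.3. The serine pathway enzymes Psat1 and Phgdh stood at 808 ± 39.7 and 534 ± 45.0 CPM, and Shmt2, which passes serine carbon to folate, at 418 ± 19.9 CPM. Their length-scaled levels were 806 ± 29.9, 735 ± 46.0 and 476 ± 12.4. The proline pathway enzyme Aldh18a1 had 448 ± 15.9 CPM and Slc3a2, the heavy chain of several amino acid transporters, 364 ± 10.8 CPM. Cystathionine synthase (Cbs) was lowest at 14, 14 and 24 counts. Of 31 listed genes 19 had at least 100 CPM. All 25 fixed genes of pentose phosphate and nucleotide synthesis are in the table, and 15 had at least 100 CPM, led by transketolase (Tkt, 759 ± 54.3 CPM) and the purine enzymes Paics (497 ± 13.6) and Atic (424 ± 2.82).

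The desaturase Scd2 led the fatty acid genes, followed by Acsl5 and Scd1 on both scales. Scd2 (chromosome 19, 44293674 to 44306864) was measured at 2871, 2941 and 2849 CPM and its neighbour Scd1 at 938, 962 and 855 CPM, and no Scd1 value came near those of Scd2. Scd2 was 2.79 ± 0.140 times Scd1 on the length-scaled level, and Scd3 had 20, 12 and 19 counts, though reads may be shared between such similar genes. Acsl5, which activates fatty acids, stood at 1068, 1078 and 1121 CPM, fatty acid synthase (Fasn) at 484 ± 14.6 and Acly at 473 ± 20.1. Fasn came to 126 ± 6.47 on the length-scaled level with a transcript of 10.05 kb. All 27 sterol genes fixed are in the table and took 0.305% ± 0.00251 of the counts. Hmgcs1, an entry enzyme of sterol synthesis, was the highest at 480.4 ± 8.24 CPM. Genes of fatty acid oxidation took less, 0.190% ± 0.00384, with the ketone enzyme Oxct1 at 316 ± 13.4 CPM, Acadm at 212 ± 4.10 and Cpt1a, which admits fatty acids to mitochondria, at 212 ± 3.88.

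**Figure D5:**
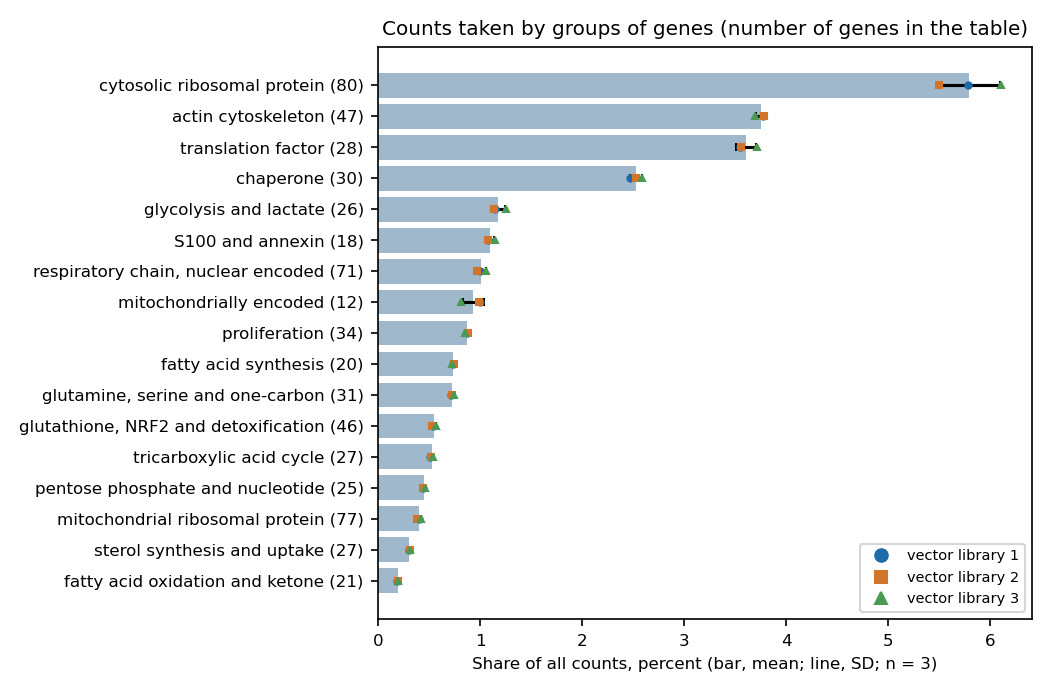
Share of all counts taken by 17 groups of genes in the vector cells, as the mean (bar) with SD (line, n = 3) and a symbol for each library, with the number of listed genes in brackets. The axis starts at 0. Ribosomal protein genes lead with 5.79%, followed by actin, translation and chaperone genes, and the mitochondrially encoded share is lowest in library 3.

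Detoxification genes were unequal. The peroxidase Prdx1 stood at 599, 629 and 676 CPM, Aldh2 at 405 ± 25.5 and thioredoxin reductase (Txnrd1) at 314 ± 1.15. The stress factor Nfe2l2 (NRF2) had 187 ± 3.80 CPM and its inhibitor Keap1 53.2 ± 1.70 CPM, with length-scaled levels of 198 ± 8.38 and 38.5 ± 1.88. The quinone reductase Nqo1, commonly used as an NRF2 target, had 20, 17 and 33 counts, and Cbr3 was lowest with 7, 4 and 9. Of 46 listed genes 20 had at least 100 CPM and 6 were under 1 CPM. Iron storage was represented by ferritin heavy chain (Fth1) at 801, 746 and 827 CPM and light chain (Ftl1) at 67.2, 63.4 and 80.7 CPM, and the anti-ferroptosis enzyme Gpx4 stood at 407 ± 12.8 CPM.

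The receptor kinases with the highest CPM were Met and Axl. The hepatocyte growth factor receptor Met was measured at 813, 852 and 781 CPM and Axl at 726, 715 and 772 CPM. On the length-scaled level the order turned, and Axl was 1.45 ± 0.121 times Met. Of the Erbb family, Erbb3 was measured at 98.0, 106 and 96.8 CPM, Erbb2 at 52.0, 54.2 and 52.0 and Egfr at 15.6, 15.3 and 13.1, with no overlap between the 3 genes. Fgfr1 had 12, 8 and 10 counts and Ror1, the lowest, 8, 1 and 2. Of 33 receptor kinases fixed 23 are in the table and 7 had at least 100 CPM.

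Genes of growth signalling, of the p53 pathway and of the cell cycle followed. The tumour suppressor Trp53 was measured at 30.4, 26.9 and 28.1 CPM, and no mutation was read here. Cyclin D1 (Ccnd1) stood at 1018, 980 and 1058 CPM and cyclin D2 (Ccnd2) at 392, 437 and 324. Cyclin E1 (Ccne1) was the lowest of the list at 6.31 ± 0.897 CPM. The ERK-induced phosphatase Dusp6 had 255 ± 1.74 CPM. Of the inhibitors, Cdkn2a stood at 225, 216 and 262 CPM and the p53 target Cdkn1a at 11.5, 12.6 and 13.8 CPM, while the p53 ubiquitin ligase Mdm2 had 60.5 ± 2.36 CPM. All 34 proliferation genes fixed are in the table, each with at least 10 CPM, and 28 had at least 100. Topoisomerase Top2a stood at 1367, 1418 and 1346 CPM and the proliferation antigen Mki67 at 878, 913 and 685. The Mki67 transcript is 10.061 kb long, and that gene was lowest in library 3.

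The 3 libraries were close, and across length classes the differences between them moved with transcript length, though not in the mitochondrially encoded genes. Over the 4670 genes with at least 50 CPM the median CV was 4.26% (quartiles 2.64 and 6.59%), where counting error alone has a median of 1.66%. Pearson's r of log2 CPM across genes was 0.991 between libraries 1 and 2, 0.989 between 1 and 3 and 0.988 between 2 and 3. The mean chi-square per gene was 6.23, 13.7 and 21.2 for the same pairs, more than sampling noise gives, so none of the 3 was taken for a copy of another. Separate preparations of 1 RNA would exceed sampling noise too, so this does not show separate cultures. The common dispersion of edgeR gave a biological coefficient of variation of 7.5%, and leaving out library 3 brought it to 4.62%, library 1 to 9.52% and library 2 to 7.56%. Of these genes 392 had a CV over 10% and 53 over 20%. Of the 53, 51 were lowest in library 3 and 50 were highest in library 2, and their median longest transcript was 10.5 kb against 3.87 kb over the 4670.

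The histone methyltransferase Kmt2d varied most, with 137, 189 and 66.5 CPM in libraries 1, 2 and 3 (CV 47.1%) and a transcript of 19.823 kb. The RNA polymerase II subunit Polr2a (92.2, 125 and 50.4 CPM), Muc5b, the stress factor Nfat5 (100.3, 119 and 51.0), the Hippo pathway factor Tead1 (75.6, 83.5 and 38.5), Zfhx3, Rere and mt-Nd4 (113, 125 and 61.5) came next. For each of the genes given with values here, library 2 was highest and library 3 lowest. Of these, mt-Nd4 has a short transcript of 1.378 kb and did not follow the length pattern. In library 3 the median log2 deviation was -0.24 for the mitochondrially encoded genes and 0.07 for the shortest length class. The smallest CVs belonged to Mrc1, Sept6 (69.4 ± 0.0676 CPM), Bzw2 (134 ± 0.164), Cdh17 and the lysosomal Laptm4a (157 ± 0.226), each below its own counting CV. RNA quality was not given in the labels used here, and its part in the length pattern was not tested.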

How the data were processed

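RNA of 3 vector libraries was read as counts per gene. The authors deposited raw counts with no normalization, with a column for each library. STAR and mm10 are named as aligner and genome build, per the submitters' processing notes. Versions, counter, strand setting and annotation: not given in the sources used here. CPM, its SD and CV, list sums and length-scaled levels were computed with Python 3.11.15, pandas 2.3.3 and numpy 2.4.6. The dispersion was computed with edgeR 4.0.16 in R 4.3.3 on 11320 genes kept by filterByExpr, with TMM factors computed on those genes. Over all genes of the count table, the TMM factors of libraries 1 to 3 were 1.00075, 1.00266 and 0.996593. The dispersion and CV steps were tested on simulated data with 200 changed genes. No contrast was fitted and no p-value was computed.

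Totals of 33.3 to 39.03 M counts set the precision. Reads carry no molecular identifier that a source names, so counting errors cover counting only. The members and gene lists were chosen with earlier results of these data known, and the histone list after seeing the data. Named genes are the top 30 by mean CPM, up to 6 highest members and the lowest of each described list, genes that check the label, and, from 50 CPM, the 8 largest and 5 smallest CVs. Other named genes were chosen after their values were seen, among them Cdh2, Actg1, Cldn3, Cldn12, Ocln, Itgb4, Lamb3, Esrp2, Klf5, Grhl2, Crb3, Zeb2, Snai1, Snai2, Twist1, Acta2, Col5a1, Cdx2, Onecut2, Sox2, Sox9, Gata6, Vil1, Apoa1, Mttp, Aqp5, Ager, Tppp3, Slc16a1, Slc16a3, Slc2a1, mt-Co2, mt-Co3, Nfe2l2, Keap1, Nqo1, Ftl1, the Erbb genes, Fgfr1, Cdkn1a and Mdm2. Some genes that the rule names are not reported here.

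Alternatives were TMM and RLE scaling, totals without mitochondrial and satellite-holding genes, the median of the libraries, a minimum of 10 counts in each library, length scaling, and leaving out each library in turn. Exon overlaps were counted from 50 bases.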

Additional observations from a re-analysis of the deposited data

How the results depend on the processing

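The share of counts in the top 100 genes, 19.5%, was 18.8% without mitochondrially encoded and satellite-holding genes and 30.1% on the length-scaled level, and 19.4 to 19.7% when a library was left out. The ribosomal protein share, 5.79%, was 13% on the length-scaled level, and 5.64 to 5.94% with a library left out. The median CV, 4.26%, was 2.61% without library 3 to 4.64% without library 1. Around the median of the 3 libraries, a scaled median absolute deviation in percent of that median took the place of the CV. It came to 2.84%, which is another measure and not like for like with 4.26%. TMM, RLE and the count minimum moved none (0) of the top 100 share, the ribosomal protein share and the median CV by more than the spread between libraries. Length scaling moved 20 of 45 list shares and 165 of 307 named gene levels by over 1.5 times. Otherwise the shifts over 1.5 times came from genes of a few counts, 5 with the median and 4, 4 and 1 without library 1, 2 and 3, among them Afp, Pecam1, Ramp2, Ror1, Syp, Uchl1 and Cnn1. The top 100 kept 95 to 100 of its genes under each alternative other than length scaling, which kept 65. No paired analysis was possible because no result comes from a test between groups. Levels under about 1 CPM rest on under 40 counts in these libraries, and genes not listed were not analysed here.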

Other observations

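Histone genes were measured in number. All 64 listed took 0.813, 0.710 and 0.889% of the counts in libraries 1, 2 and 3, lowest in library 2, and their median log2 deviations were 0.01, -0.22 and 0.16. The replication-independent H3f3b stood at 990, 985 and 1023 CPM and was nearly level, while the replication-dependent Hist1h4d stood at 618, 518 and 672 CPM. Hist1h2al, annotated as a processed pseudogene, stood at 204, 127 and 200. Replication-dependent histone mRNAs end in a stem-loop and carry no poly(A) tail. Genes of this family have near-identical copies, so single levels are uncertain. The 5 gene models that hold satellite repeats summed to 6031, 4097 and 4908 CPM, highest in library 1.

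Secreted and immune genes were measured as well. Igfbp4, which binds insulin-like growth factors, stood at 1718, 1619 and 1777 CPM, osteopontin (Spp1) at 1120, 1111 and 1126 and clusterin (Clu) at 634, 637 and 670. The ligand Wnt5a had 15, 12 and 12 counts and the cytokine Csf3, the lowest of 40 listed, 7, 9 and 3. Of the antigen presentation genes B2m had 308 ± 9.64 CPM and H2-D1 139 ± 6.37 CPM, while interferon-induced Isg15 had 10, 6 and 17 counts. Of the immediate early genes Junb had 204, 167 and 218 CPM and Fos 5.26, 5.89 and 5.87. The oncofetal RNA-binding genes Igf2bp2, Igf2bp1 and Igf2bp3 had 104 ± 6.62, 81.1 ± 4.87 and 17.2 ± 0.310 CPM. Wnt5a, Fos and Hist1h2al were chosen after their values were seen.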
